A study of Arabidopsis thaliana with 10 samples.

Results

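Among 22746 non-control probe sets measured in seedlings of the Arabidopsis thaliana ecotypes C24 and Col, 59 separated the ecotypes by a wide margin at every temperature sampled. Of these, 14 were higher in C24 and 45 were higher in Col, and they are called C24-high and Col-high below. A probe set entered when the lowest array of the higher ecotype lay at least 1.5 above the highest array of the other on the log2 scale, a distance called the gap. In addition, the group means within each ecotype had to lie within 1.0 of each other. Members were thus chosen by the log2 signals of all 10 arrays, and the ecotype difference of a member is described and not tested. Exactly 1 gene was annotated for 37 of the 59, 9 of the C24-high and 28 of the Col-high members. Another 6 members carry several genes and 16 carry none in the annotation used.

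The series compares ecotypes in their response to cold on Affymetrix ATH1 arrays of 1 colour, 10 arrays in 5 groups of 2 that its text calls biological replicates. The groups were Col kept at room temperature or for 24 h at 4 °C, and C24 kept at room temperature or put at 4 °C for 3 h or 24 h. There were no Col arrays at 3 h, so C24 had 6 arrays and Col had 4. All plants grew on plates of half-strength medium in a chamber at 23 and 18 °C, and total RNA was taken from tissue labelled leaf at 20 days of age, whereas the series text gives seedlings of 14 days. Signals are deposited RMA values on the log2 scale, so a difference of 1 is a change of 2-fold.

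Natural accessions of Arabidopsis differ in sequence at many genes, in the presence or absence of whole genes and in the methylation of their DNA. Genes for defence, secreted proteins, F-box proteins and specialised metabolism are well known to vary among accessions. A difference that lies in or near the gene itself can act in many environments or only in some. Col is the accession of the reference genome, and ATH1 probes were designed on that sequence. For a Col-high member, fewer transcripts in C24 and a weaker match of C24 transcripts to the probes cannot be told apart on this array, and in a whole-tissue sample fewer cells of a type and less RNA per cell cannot be told apart either.

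Replicate arrays lay close together, with correlations of 0.99725 to 0.99829 across probe sets. The pooled SD between replicates had a median of 0.117 over the 59 members and 0.0884 over all probe sets, far below the smallest gap allowed. Array properties moved with ecotype. Bacterial poly-A spike-ins averaged 6.69 ± 0.11 on the C24 arrays (SD, n = 6). On the 4 Col arrays they averaged 5.55 ± 0.02 (SD). The two-sided exact permutation test gave p = 0.00476, the smallest value that 210 splits allow. The difference between the 3' and 5' control probe sets of GAPDH was 0.14 ± 0.08 and -0.06 ± 0.05, with the same exact p of 0.00476. The array medians were 6.55 ± 0.03 in C24 and 6.55 ± 0.02 in Col (exact permutation p = 0.624). The upper quartiles did not overlap, at 8.27 to 8.29 on the C24 arrays and 8.22 to 8.23 on the Col arrays. Leaf markers were high on all arrays. The 4 measured antenna and photosystem genes of a list of 7 averaged 12.1 to 13.8 in C24 and 12.9 to 13.7 in Col. By the limma fit, 1 was higher and 1 lower in C24 at room temperature, and 2 were lower after 24 h. At room temperature the summed linear signal of the 4 was 44243 to 44701 in C24 and 46991 to 47350 in Col. After 24 h it was 32781 to 33455 and 36845 to 37811. The 3 measured root markers PYK10, EXPA7 and EXPA18 of a list of 4 were lower in C24 at room temperature and after 24 h by the limma fit. Their summed linear signal was 1608 to 1638 in C24 at room temperature, 5974 to 6063 after 3 h and 3147 to 3192 after 24 h. In Col it was 6891 to 8003 at room temperature and 4890 to 5141 after 24 h. PYK10 made up most of each sum. Its group means were 10.61 to 12.81 (log2), against 4.73 to 6.48 for EXPA7 and 5.10 to 7.14 for EXPA18. The part of these properties in the members' differences was not tested.

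The number of probe sets that separate the ecotypes turned with the size of the gap. Counting any gap above 0 with constant group means, 2056 probe sets were higher in C24 and 1364 were higher in Col. At a gap of at least 0.5 the counts were 187 and 270, at 1.0 they were 41 and 96, at 1.5 they were 14 and 45, and at 3 they were 4 and 9. C24 thus led among small separations and Col among large ones. After another quantile normalisation the counts above 0 were 1836 and 1533, and at 1.5 they were 14 and 45. Without the limit on group means, 2294 probe sets (10.1%) had every C24 array above every Col array and 1779 (7.82%) the reverse, whereas gaps of 1.5 or more were reached by 26 (0.114%) and 79 (0.347%). Of these, the limit on group means removed 12 and 34.

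**Figure D1:**
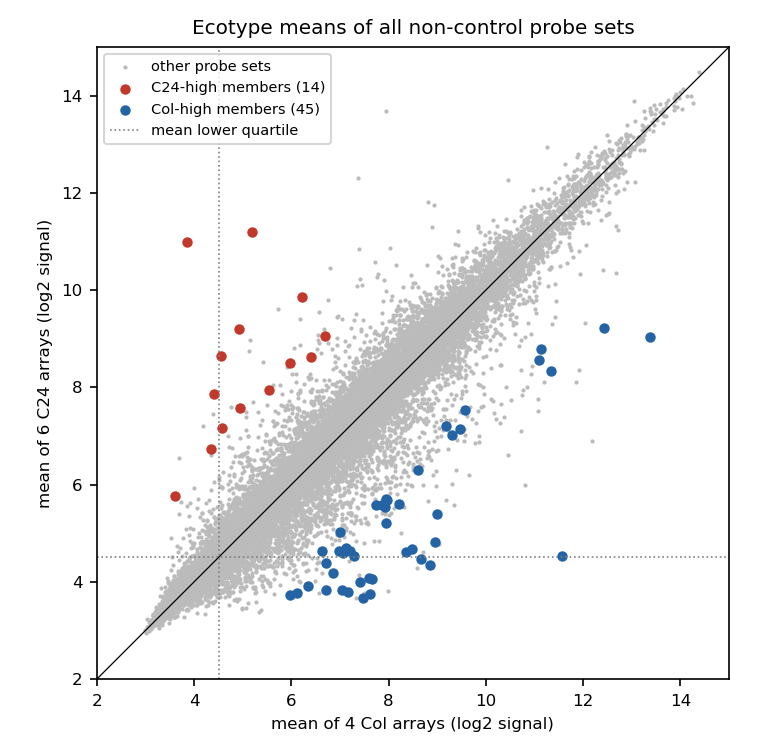
Mean log2 signal of the 4 Col arrays (horizontal) and of the 6 C24 arrays (vertical) for each non-control probe set, with the 14 C24-high members in red, the 45 Col-high members in blue and all others in grey. The solid line marks equal signals and the dotted lines mark the mean lower quartile of the arrays. Grey points as far from the line as the members overlapped between arrays, had a smaller gap or changed with temperature.

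**Figure D2:**
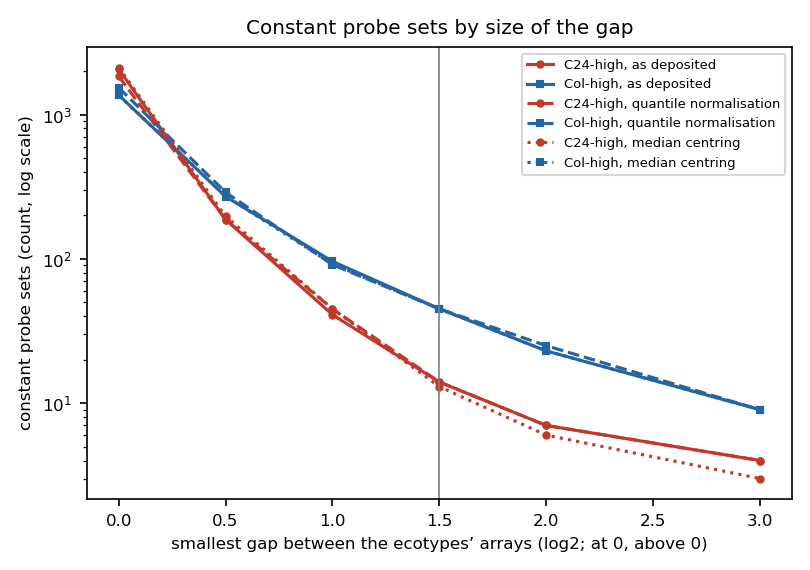
Number of probe sets with constant group means (logarithmic axis) that reach at least the gap on the horizontal axis (log2; at 0, any gap above 0), for C24-high in red and Col-high in blue under 3 scalings of the arrays. The curves cross between gaps of 0 and 0.5, and at the limit of 1.5 (grey line) the counts as deposited are 14 and 45.

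The ecotype means of the C24-high members differed by 2.17 to 7.13, with a median of 2.61, and those of the Col-high members by 1.97 to 7.02, with a median of 2.58. Over all 22746 probe sets the median absolute difference was 0.201. The higher ecotype stood at a median level of 8.57 for C24-high and 7.87 for Col-high members, and the lower ecotype at 4.94 and 4.65. Signals under the lower quartile of an array, which lay between 4.48 and 4.52, are called the background range here, because no detection call was used and such a signal is not shown to be above background. All 4 Col arrays were in that range for 2 of the 14 C24-high members, and all 6 C24 arrays were in it for 14 of the 45 Col-high members. No array of the lower ecotype was in it for 8 and 20 members, although lying above a quartile does not by itself show a detected transcript.

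AT4G29200 had the widest separation on the C24-high side. It read 10.57 and 10.51 in C24 at room temperature, 10.94 and 10.91 at 3 h in the cold and 11.54 and 11.51 at 24 h, against 4.00 and 3.67 in Col at room temperature and 3.77 and 4.01 after 24 h. The 6 C24 arrays and the 4 Col arrays were 6.51 apart at their closest. All Col values lay in the background range, so this gene was bright in C24 and not shown to be above background in Col, and no fold is given.

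AT5G15360 read 8.42 and 8.48, 8.48 and 8.40, and 9.02 and 9.03 in the same order of C24 groups, and 4.57, 4.79, 4.59 and 4.26 on the Col arrays. AT2G29170, a tropinone reductase-like dehydrogenase, read 9.31 and 9.33, 8.66 and 8.69, and 9.57 and 9.58 in C24 and 5.25, 4.83, 4.65 and 4.94 in Col. The gaps were 3.61 and 3.41, and the background range held 1 of 4 Col arrays for AT5G15360 and 0 of 4 for AT2G29170. AT2G29370, of the same enzyme family, had a gap of 3.24 in the same direction and stayed outside the members only because its C24 group means spanned 1.07.

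AT1G50290 read from 9.44 to 10.26 in C24 and from 5.74 to 6.67 in Col, a gap of 2.77 with no Col array in the background range. AT5G34920, which RefSeq lists as a pseudogene, read from 7.44 to 8.39 in C24 and from 4.08 to 4.59 in Col. In the background range were 3 of its 4 Col arrays. The annotation names only this gene, but its probe set has the suffix _s_at, which marks probes shared among transcripts. The signal is therefore not shown to come from this pseudogene alone. AT1G18180 differed by a gap of 2.03, from 8.53 to 8.80 in C24 against 6.19 to 6.50 in Col. Of these 3 genes, AT1G50290 and AT1G18180 had no Col array in the background range.

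The dimmest C24-high gene was AT3G27473, a protein with cysteine- and histidine-rich C1 domains of the zinc-binding kind. It read 5.70 to 5.84 in C24 and 3.50 to 3.76 in Col, and its C24 group means spanned 0.03, the least of the 14. AT5G24240, a type II phosphatidylinositol 4-kinase of the gamma class, read 6.83 to 7.52 in C24 and 4.17 to 4.91 in Col, and AT5G44570 read 6.18 to 7.13 and 4.14 to 4.57. Of the 5 C24-high members without a single gene, probe set 250476_at was the brightest, at 10.83 to 11.44 in C24 and 4.93 to 5.41 in Col, a gap of 5.42. The 4 with no gene had gaps of 1.81 to 5.42, and the 1 that matches 2 genes, 265109_s_at, had a gap of 1.55 with means of 9.05 in C24 and 6.70 in Col.

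**Figure D3:**
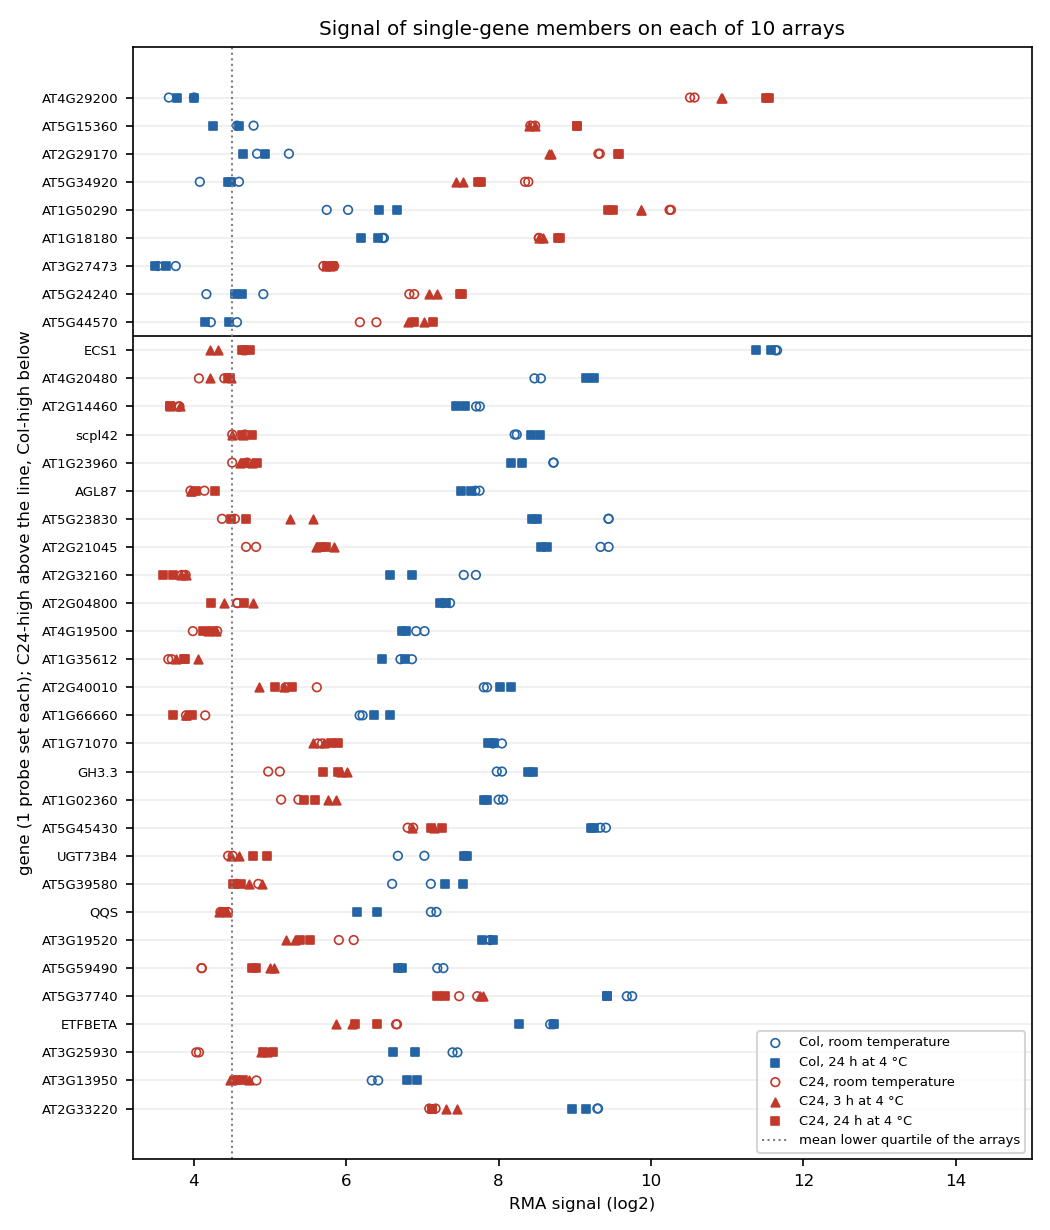
Log2 signal of each of the 37 members with 1 gene on each of the 10 arrays, C24 in red and Col in blue, with circles for room temperature, triangles for 3 h and squares for 24 h of cold. C24-high genes stand above the horizontal line and Col-high genes below it, each set ordered by its gap, and the dotted line marks the mean lower quartile of the arrays. By the rule that chose the members, in no row do red and blue points come closer than 1.5.

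On the Col-high side ECS1 (AT1G31580), a small protein of the cell wall whose locus is linked to resistance to Xanthomonas, stood out. It read 11.63 and 11.65 in Col at room temperature and 11.58 and 11.38 after 24 h, against 4.65 and 4.68 in C24 at room temperature, 4.32 and 4.22 after 3 h and 4.63 and 4.74 after 24 h. The gap of 6.64 was the widest of all 59 members, and the ecotype means differed 130-fold. In Col the gene was among the bright probe sets of the array, and in C24 it lay at or just above the background range, with 2 of 6 arrays in it.

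Several other Col-high genes encode proteins of defence or of the cell surface, as background knowledge of their families. AT4G19500, a disease resistance protein of the TIR-NBS-LRR class of immune receptors, read 7.03, 6.92, 6.74 and 6.78 in Col and 3.99 to 4.31 in C24, where all 6 arrays were in the background range. AT5G23830, a protein with an MD-2-related lipid-recognition domain, read 9.44 and 9.44 in Col at room temperature and 8.51 and 8.44 after 24 h, and 4.37 to 5.57 in C24. AT1G02360, a chitinase, read 7.82 to 8.06 in Col and 5.15 to 5.86 in C24. AT5G39580, a class III peroxidase of the secretory pathway, read 6.60 to 7.53 in Col and 4.51 to 4.89 in C24. Of these genes, only the immune receptor was in the background range on every C24 array. In the peroxidase the Col arrays spread more widely than the C24 arrays.

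Further Col-high genes encode enzymes of several kinds, again by background knowledge of their families. AT2G21045 (HAC1), an arsenate reductase that limits arsenic accumulation and varies among accessions, was the 1 measured gene of a short list on ion transport. It read 9.34 and 9.44 in Col at room temperature and 8.64 and 8.55 after 24 h, against 4.69 and 4.82 in C24 at room temperature, 5.60 and 5.85 after 3 h and 5.74 and 5.66 after 24 h. HAC1 is known as a gene of the root surface. The root marker sum, mostly PYK10 signal, was lower in C24 than in Col at room temperature and after 24 h. The HAC1 values in C24 were lowest at room temperature, as was that sum. The part of root tissue in the difference was not tested.

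UGT73B4 (AT2G15490), of the UDP-glycosyltransferases that join sugars to small molecules, read 6.68 and 7.03 in Col at room temperature and 7.55 and 7.58 after 24 h, and 4.45 to 4.96 in C24. It was the 1 member among 51 probe sets annotated as UDP-glycosyltransferases. GH3.3 (AT2G23170), which conjugates the hormone auxin to amino acids, read 7.98 and 8.04 in Col at room temperature and 8.38 and 8.45 after 24 h. In C24 it read 5.13 and 4.98 at room temperature, 5.93 and 6.01 after 3 h and 5.70 and 5.89 after 24 h, so both ecotypes were brighter in the cold, and the difference C24 minus Col was -2.96 at room temperature and -2.62 after 24 h. AT2G32160, a methyltransferase of the S-adenosylmethionine-dependent kind, read 6.58 to 7.70 in Col and 3.59 to 3.90 in C24. The serine carboxypeptidase-like gene scpl42 (AT5G42240) read 8.21 to 8.55 in Col and 4.50 to 4.77 in C24. AT1G71070, of the core-2/I-branching glycosyltransferase family, read 7.86 to 8.04 and 5.57 to 5.90, and AT5G59490, a haloacid dehalogenase-like hydrolase, averaged 6.97 and 4.64. The group means of AT1G71070 spanned 0.08 in Col and 0.22 in C24, whereas those of AT5G59490 spanned 0.53 and 0.92.

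Housekeeping functions were represented too. ETFBETA (AT5G43430), a subunit of the mitochondrial electron transfer flavoprotein that takes electrons from branched-chain amino acid breakdown, read 8.72, 8.68, 8.26 and 8.72 in Col. In C24 it read 6.66 and 6.67 at room temperature, 5.87 and 6.07 after 3 h and 6.11 and 6.40 after 24 h. AT2G33220, a GRIM-19 type subunit of respiratory complex I, read 8.96 to 9.31 in Col and 7.09 to 7.45 in C24, and AT2G40010, a P0 protein of the large ribosomal subunit, read 7.81 to 8.16 and 4.85 to 5.61. None of these 3 was in the background range on any array. The ecotype means differed 4.92-fold, 3.91-fold and 6.75-fold in the same order, and that of AT2G33220 was the smallest among the 59 members.

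Among regulators, AGL87 (AT1G22590), a MADS-box transcription factor, read 7.51 to 7.75 in Col and 3.96 to 4.28 in C24, with every C24 array in the background range. AT1G66660, a SINA-like ubiquitin ligase, read 6.18 to 6.58 and 3.73 to 4.15, also with every C24 array in that range. AT5G45430, a protein kinase, read 9.21 to 9.41 in Col and 6.81 to 7.26 in C24, and AT5G37740, a C2-domain protein of the family that recruits abscisic acid receptors to membranes, read 9.42 to 9.75 and 7.19 to 7.79. The kinase and the C2-domain protein were clear of the background range in both ecotypes. QQS (AT3G30720), a gene found only in Arabidopsis thaliana that affects starch content and is known for methylation differences among accessions, read 7.18 and 7.11 in Col at room temperature and 6.41 and 6.15 after 24 h. In C24 it read 4.33 to 4.45, in the background range on all 6 arrays, and its C24 group means spanned 0.02, the least of all 59 members.

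For most of the 8 remaining Col-high genes no role is given here. AT4G20480 read 8.47 to 9.26 in Col and 4.07 to 4.49 in C24, a gap of 3.98 that was second among single-gene members of this side. AT2G14460 read 7.44 to 7.75 and 3.68 to 3.82, AT1G23960 read 8.16 to 8.72 and 4.50 to 4.83, and AT1G35612, a pseudogene in RefSeq, read 6.47 to 6.86 and 3.67 to 4.05. AT4G20480, AT2G14460 and the pseudogene were in the background range on every C24 array. AT2G04800 read 7.23 to 7.36 in Col, the narrowest spread among Col arrays of the 45, and 4.22 to 4.78 in C24. AT3G19520 had a gap of 1.68, AT3G25930 of 1.58 and AT3G13950 of 1.51. The ecotype means of these 3 genes differed 4.91-fold, 5.44-fold and 3.99-fold. The background range held 2 of 6 C24 arrays for AT3G25930 and 1 of 6 for AT3G13950, so their folds rest partly on signals not shown to be above background.

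The 12 Col-high members with no annotated gene had gaps of 1.51 to 4.04. The brightest of them, 255257_at, read 13.27 to 13.53 in Col and 8.80 to 9.23 in C24, so it was among the strongest signals on the Col arrays and still above the upper quartile of the C24 arrays. The 5 that match several genes had gaps of 1.62 to 3.11. Among these, 249490_s_at matches 4 genes and 245651_s_at matches 5, and their signals cannot be assigned to a single copy. Probe sets with the suffix _s_at or _x_at, which marks probes shared among transcripts, made up 7 of the 59 members (11.9%) and 4.67% of all probe sets.

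Members with a single gene lay on all 5 chromosomes by their locus codes, with 2, 1, 1, 1 and 4 C24-high genes on chromosomes 1 to 5 and 7, 8, 4, 2 and 7 Col-high genes. No pair of member genes lay within 20 kb of each other in the RefSeq annotation of TAIR10.1. None of the 37 genes had a second probe set annotated to it, so no second, independent reading of a gene was found. The 8730 probe sets with no annotated gene could not be searched for one. A gene symbol other than the locus code was present for 7 of the 28 Col-high genes, for none of the 9 C24-high genes and for 1628 of 13513 probe sets with 1 gene. RefSeq lists 2 of the 37 as pseudogenes (5.41%), against 6.83% of all probe sets with 1 gene.

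Genes beside the members were described where a probe set named them, which gave 35 measured adjacent genes of 26 members, some of them dim in both ecotypes. Of these, 34 differed between the ecotype means by less than 1. The median absolute difference of these neighbours was 0.215, against 0.184 over 13356 named genes. A difference of at least 1 was found for 1 adjacent gene (2.86%) and for 8 of 93 measured genes up to 3 places away (8.6%), against 5.19% of all named genes, so neither share is read as a property of the members. All 8 lay near Col-high genes, and 4 went the same way as the member and 4 the opposite way, while none of 16 neighbours of C24-high genes differed that far. The adjacent gene was UGT73B5 (AT2G15480), a close relative of UGT73B4, which read 6.24, 6.27, 7.29 and 7.34 in Col and 5.39 to 5.72 in C24. Its gap was 0.52 in the same direction. Beside AT5G23830, its relative AT5G23840 averaged 5.80 in Col and 4.97 in C24, and the arrays overlapped. Beside AT2G29170, AT2G29180 averaged 8.70 in C24 and 7.85 in Col, a gap of 0.48. Opposite directions occurred next to ETFBETA, where AT5G43450, 2 places away, averaged 9.79 in C24 and 8.35 in Col, and near ECS1, where AT1G31550, 3 places away, averaged 8.45 and 7.10.

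**Figure D4:**
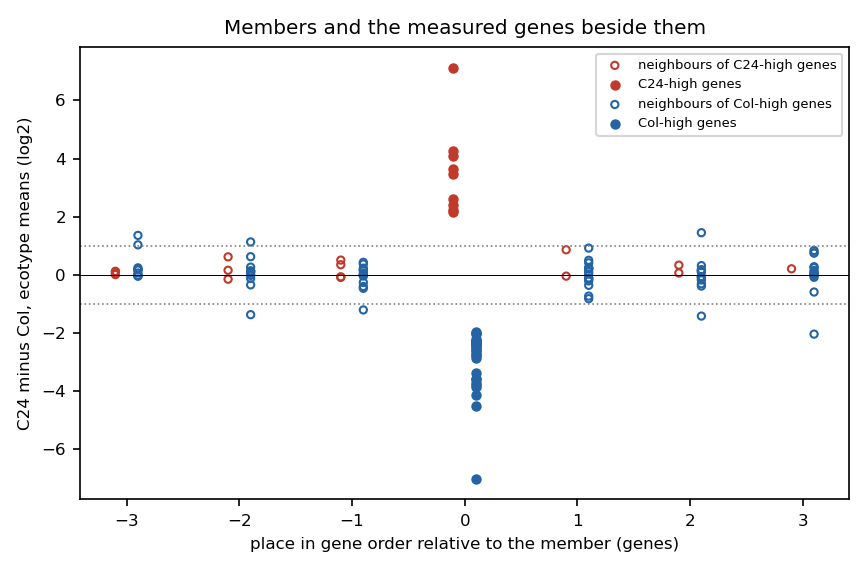
Difference between ecotype means (C24 minus Col, log2) of the single-gene members (filled, at 0) and of the measured genes up to 3 places before and after them in the RefSeq gene order (open), with red for C24-high and blue for Col-high members. Dotted lines mark differences of 1 either way, and 8 of the 93 neighbours lie at or beyond them.

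The label of constant differences holds as far as the rule sets it, with each ecotype's group means inside 1.0, and not as the absence of a cold response. Among C24-high members the C24 group means spanned a median of 0.736 and the Col group means 0.185. Among Col-high members the spans were 0.283 and 0.292, and over all probe sets they were 0.383 and 0.235. Both spans were at most 0.5 in 2 of the 14 C24-high and 22 of the 45 Col-high members. By the limma fit to all probe sets (Benjamini-Hochberg adjusted p below 0.05), all 59 members were called between ecotypes in their own direction, both without cold, where 56.0% of all probe sets were called (32.7% higher and 23.4% lower in C24), and at 24 h of cold, where 49.3% were called (28.1% higher and 21.2% lower). Nothing is read from that count, since the same signals chose the members.

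For cold, the rule capped the change at 1.0, so the counts that follow are a description. In Col, 24 h of cold changed 4 of 14 C24-high members, 3 higher and 1 lower, and 27 of 45 Col-high members, 12 higher and 15 lower, against 49.1% of all probe sets (23.2% higher and 25.9% lower). The same cold in C24 changed 11 of 14, 6 higher and 5 lower, and 15 of 45, 10 higher and 5 lower, against 49.5% (24.1% higher and 25.4% lower). At 3 h in C24, 8 C24-high members (4 higher and 4 lower) and 19 Col-high members (14 higher and 5 lower) changed, against 45.7% (22.5% higher and 23.2% lower). The C24 comparisons at 3 h and 24 h share the same room temperature arrays. Of the 14 Col-high members in the background range on every C24 array, 9 were called in Col after 24 h, 1 in C24 after 24 h and 0 in C24 after 3 h, where the limma fit called 19 of the other 31. Without each single array in turn, the counts for 24 h in Col ran from 4 to 6 and from 19 to 29, and those for 24 h in C24 from 9 to 13 and from 10 to 15.

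The response to 24 h of cold differed between the ecotypes in 11 of 14 C24-high members (6 higher and 5 lower in C24) and 21 of 45 Col-high members (13 and 8), against 39.5% of all probe sets (20.4% higher and 19.1% lower). HAC1 (AT2G21045) fell by 0.79 in Col and rose by 0.95 in C24, and the difference C24 minus Col went from -4.64 to -2.89. AT3G25930, a protein of the universal stress protein family, fell by 0.67 in Col and rose by 0.93 in C24, and AT5G59490 fell by 0.53 and rose by 0.69. For these 3 genes the C24 room temperature arrays were the lowest of all 10. Those of AT3G25930 and AT5G59490 lay in the background range, so their rises in C24 start from signals not shown to be above background. The root markers moved in the same way, with group means lowest in C24 at room temperature and a response higher in C24 by 1.54 for PYK10, 0.89 for EXPA7 and 1.42 for EXPA18, and their part in these responses was not tested. AT1G50290, a C24-high gene, moved the other way around, rising by 0.66 in Col and falling by 0.78 in C24, and its ecotype difference went from 4.37 to 2.92. AT4G29200 rose by 0.98 in C24, just inside the limit, and stood at 0.05 ± 0.11 (SE) in Col in the background range. QQS fell by 0.87 in Col and was not called in C24, where it lay in the background range. Genes whose responses were not called as different included ECS1 (-0.17 in Col and 0.02 in C24), AGL87 (-0.15 and 0.11) and AT2G04800 (-0.04 and -0.13).

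**Figure D5:**
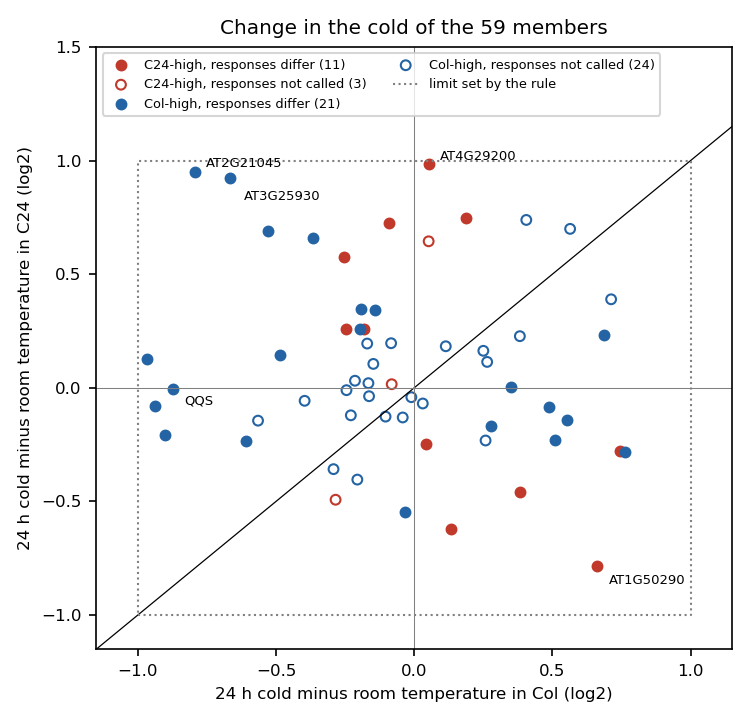
Change from room temperature to 24 h of cold in Col (horizontal) and C24 (vertical), in log2 units, for the 14 C24-high members in red and the 45 Col-high members in blue. Filled points are members whose 2 responses differed at a limma adjusted p below 0.05 (11 and 21), the diagonal marks equal responses, and the dotted square is the limit of 1.0 that the rule set.

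At the edge of the rule, the nearest single-gene members inside the limit of 1.5 were AT2G33220, AT3G13950 and AT3G25930 on the Col-high side, with gaps of 1.51, 1.51 and 1.58. The nearest ones outside were the histone gene HTB2 (AT5G22880), just under the limit, AT5G52810 at 1.40 and GLC (AT1G65450) at 1.39. On the C24-high side AT5G44570, AT5G24240 and AT3G27473 lay inside at 1.61, 1.92 and 1.94, and AT4G22450, AT2G19980 and AT2G13290 lay outside at 1.47, 1.44 and 1.43. Some wide differences were kept out because they changed with temperature. The glutathione transferase GSTU25 (AT1G17180) had a gap of 3.49 and read 9.87 in Col at room temperature and 11.73 after 24 h, AT5G38910 had a gap of 3.12 and AT5G45500 one of 2.99. On the C24-high side these were, besides AT2G29370, the methionine sulfoxide reductase MSRB6 (AT4G04840, gap 1.98) and the thionin THI2.2 (AT5G36910, gap 1.85), whose C24 means spanned 1.44 and 1.37.

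Other genes known to vary among accessions were looked up on short lists. Of 12 defence loci and 7 flowering time loci, 0 had a named probe set. Of 8 glucosinolate loci, 3 were measured and none was a member. AT2G25450 (GSL-OH), which makes hydroxylated glucosinolates, was lower in C24 by 2.91 ± 0.08 (SE) at room temperature and by 3.25 ± 0.08 after 24 h, with limma adjusted p below the threshold at both. It was kept out because its C24 group means spanned 1.22, although its gap was 1.79. AOP1 was lower in C24 at room temperature only (-0.50 ± 0.12), and AOP3 was higher there by 0.26 ± 0.09. AOP3 then read 4.46 and 4.59 in C24 and 4.27 and 4.26 in Col, in or near the background range. Of 6 cold genes, none was a member. By the limma fit, 4 of the 6 were higher and 2 lower in C24 at room temperature, and 0 were higher and 3 lower after 24 h. COR27, a cold-regulated gene, averaged 10.93 in C24 and 3.83 in Col at room temperature, and 10.73 and 10.97 after 24 h. Its group means spanned 0.20 in C24 and 7.15 in Col. By symbol, 1 of 51 glycosyltransferase probe sets (UGT73B4) and 1 of 85 transcription factor probe sets (AGL87) were members, against 0 of 29 cytochromes P450, 0 of 13 glutathione transferases, 0 of 12 defensins, 0 of 27 transporters, 0 of 9 disease resistance genes and 0 of 4 jacalins. Most members carry only a locus code, so these counts miss members such as the receptor AT4G19500. Of the seed and flower markers looked up, 0 had a named probe set.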

How the data were processed

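RNA of 10 seedling samples was hybridised to 10 arrays, and the authors deposited 1 log2 value for each probe set and array, obtained using GCOS and RMA, per the submitters' processing notes, which state no versions. RMA is designed to bring arrays to a common distribution, and differences at the bright and dim ends can be compressed. Whether the 10 arrays were normalised together is not stated. All 10 columns were mapped by sample. After removal of 64 control probe sets from 22810, the remaining 22746 were used with no filter on low signals. The number of arrays limits the precision.

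Members were found with Python 3.11.15 (pandas 2.3.3) by the gap of at least 1.5 and the limit of 1.0 on group means. The members, gene lists and rules were chosen with earlier results of these data known. A model of 5 group means was fitted to all arrays and all 22746 probe sets by lmFit and eBayes of limma 3.58.1 (R 4.3.3), with Benjamini-Hochberg adjustment within each of 6 comparisons and a threshold of 0.05, and it was tested on simulated data. Control probe sets were averaged per array (GAPDH over both pairs of 3' and 5' probe sets) and compared by exact permutation.

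Genes were named from the platform annotation where a probe set has exactly 1 gene (13513 have 1, 503 several and 8730 none), and locus codes came from RefSeq for TAIR10.1 (13436 matched). Named were the 12 widest gaps a side (9 exist for C24-high), members of the lists, neighbours, and the genes at the edges of the rule. The other single-gene members were named after their values were seen. Neighbours are the genes next in RefSeq order, with the probe set of the highest mean for each gene. Families were searched by symbol and synonym, since the tables hold no descriptions. Promoter and protein sequences were not used here.

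Alternatives were another quantile normalisation, median centring, other limits for gap and group means, dim or shared probe sets left out, the C24 3 h arrays left out, a block for replicate number, a robust prior that follows intensity, and each array left out in turn. Leaving out the C24 room temperature arrays and exchanging replicate numbers were chosen after seeing the data.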

Additional observations from a re-analysis of the deposited data

Results flagged for a closer look

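The cold responses of 21 single-gene members differed between the ecotypes by a test of the difference itself (24 h of cold against room temperature in C24 minus the same in Col, limma adjusted p from 1.23e-06 to 0.0475, SE from 0.0973 to 0.219, log2). Among C24-high genes the response was higher in C24 for AT4G29200 (0.93), AT5G15360 (0.83), AT5G44570 (0.82), AT2G29170 (0.51) and AT1G18180 (0.44). It was lower in C24 for AT1G50290 (-1.45) and AT5G34920 (-0.75).

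Among Col-high genes it was higher in C24 for AT2G21045 (1.74), AT3G25930 (1.59), AT5G59490 (1.22), AT5G23830 (1.1), QQS (0.87), AT2G32160 (0.69), AT1G23960 (0.63), AT5G45430 (0.48) and AT1G02360 (0.46). It was lower in C24 for AT5G39580 (-0.69), AT3G13950 (-0.58), AT3G19520 (-0.51), AT4G20480 (-0.46) and AT1G66660 (-0.45). For QQS, AT2G32160, AT4G20480 and AT1G66660 all C24 arrays lay in the background range, and for AT4G29200 all Col arrays did, so these values are not shown to be above background.

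The calls of AT2G29170 and AT4G20480 are weakly held. They were lost with the replicate block (limma adjusted p = 0.0556 and 0.0579), after another quantile normalisation (0.0667 and 0.06) and in 8 and 7 of the 10 fits that leave out 1 array. The call of AT1G66660 was lost in 7 of those fits, that of AT5G39580 in 4, that of AT5G45430 in 3 and that of AT1G02360 in 2.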

How the results depend on the processing

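The member counts followed the limits of the rule. With a gap of at least 1.0 there were 41 C24-high and 96 Col-high members, and with 2.0 there were 7 and 23. With group means within 0.5 there were 2 and 22, and without that limit 26 and 79. Without the C24 3 h arrays there were 22 and 71, and without the C24 room temperature arrays 36 and 70. Leaving out a whole group can only loosen the rule, and both settings leave out the 2 arrays of a group. Of the 22 C24-high probe sets added without the room temperature arrays, 3 had failed only the limit on group means, 6 only the gap and 13 both. The 8 added without the 3 h arrays split into 2, 4 and 2. For Col-high, the 25 and 26 added split into 15, 7 and 3 and into 6, 5 and 15. Each of these looser settings kept all 14 and 45 members. Without single arrays the counts ran from 13 to 17 and from 44 to 48. No gap of a single-gene member changed sign under the 12 settings run, and the smallest was 1.45. Leaving out an array can only keep or widen a gap, and members were chosen with gaps of at least 1.5. The lack of a reversal is therefore not read as support.

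Calls over all probe sets stayed within 1.5 times the main counts. Without single arrays, where the lone array of a group is assumed to vary like the others, they ran from 10989 to 12914 and from 9295 to 11201 for the ecotype comparisons at room temperature and after 24 h. They ran from 9768 to 11220 for 24 h in Col, from 8659 to 10521 and from 9711 to 11431 for 3 h and 24 h in C24, and from 7796 to 8809 for the difference of responses. Among C24-high and Col-high members the differing responses numbered 9 to 10 and 17 to 22, and those at 3 h in C24 6 to 9 and 14 to 19. Of the 11 and 21 differing responses, 9 and 15 were kept without any single array. Those of AT2G29170, AT4G20480, AT1G66660, AT5G39580, AT5G45430 and AT1G02360 among named genes were lost without at least 1 array (adjusted p up to 0.174).

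Nothing in the labels ties replicate numbers across groups, and same-numbered arrays deviated together weakly (correlations from -0.115 to 0.119). With the replicate block, 12743 and 11153 probe sets were called between ecotypes at room temperature and after 24 h, 11142, 10311 and 11227 for cold in Col and for 3 h and 24 h in C24, and 8924 for the difference of responses, where AT2G29170 and AT4G20480 lost their calls (limma adjusted p = 0.0556 and 0.0579). With the C24 24 h numbers exchanged, 8992 differing responses were called.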
